A study of Mus musculus with 12 samples.

Results

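The clustered protocadherins are cell-adhesion proteins of the cadherin superfamily, encoded in 3 neighbouring gene clusters, Pcdha, Pcdhb and Pcdhg. Every gene of the deposited tables whose symbol names one of these clusters was taken, which gave 58 of 54532 genes: 14 in Pcdha, 22 in Pcdhb and 22 in Pcdhg. The 58 gene identifiers carry 57 symbols, because ENSMUSG00000007440 and ENSMUSG00000102206 are both listed as Pcdha11. The gene annotation used here lists Pcdhgb8 as a polymorphic pseudogene and every other member as protein-coding. All lie on the plus strand of chromosome 18 (GRCm38), with Pcdha at 36930184 to 37187661, Pcdhb at 37264938 to 37524479 and Pcdhg at 37661793 to 37841873.

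In Pcdha and Pcdhg, each variable first exon has a promoter of its own and is spliced to constant exons that all genes of the cluster share, so that the extracellular part differs and the cytoplasmic part is common. Each Pcdhb gene encodes its whole protein in an exon of its own. A neuron switches on a small, partly random choice of these promoters, through CTCF, cohesin and DNA methylation, and like proteins bind each other across membranes. This gives neurons the surface identity by which their branches recognise and avoid themselves. The C-type genes, which end the Pcdha and Pcdhg clusters, are known to be less subject to random choice.

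Total RNA from hippocampi of mice aged 3 months was measured in 12 libraries, 3 for each sex of Atrx-cKO mice and 3 for each sex of controls. The cKO is a conditional knockout of Atrx, which encodes a chromatin remodeller, and the series title places the deletion in neurons. For the driver of the deletion, the exons removed and the alleles of the controls, no description is given in the labels. The labels call the material hippocampal cells and do not say which mouse each library came from. According to the series' design text the mice came as 3 control and cKO pairs, but nothing says which libraries form a pair, so the fits are unpaired and p-values measure the spread between libraries, which may be technical.

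Atrx had 31.0 to 38.2 FPKM in the cKO females against 55.6 to 63.6 in control females, and 32.3 to 36.5 in cKO males against 40.2 to 46.9 in control males. The 2 genotypes did not overlap in either sex (exact two-sided permutation p = 0.1 within each sex and 0.005 over both, the smallest values possible). Depth was 1.16 to 8.64 Gb of mapped sequence. Olfactory and vomeronasal receptor genes, which serve here as background, had a median of 0.00664 to 0.286 FPKM in males, 0.0863 to 0.602 in control females, and 0.305, 1.97 and 2.25 in cKO females 1 to 3. Many members lie near or below the last of these values, so levels are given both as deposited and after subtraction of that median and scaling. All 10 hippocampal neuron markers were found. The summed level of these markers after subtraction was 576.1 to 622 in control females, 615 to 632 in cKO females, 437 to 465 in control males and 413 to 478 in cKO males. Choroid plexus markers varied most between libraries. Their sum was 11.3 to 5096 in control females, 26.7 to 40.9 in cKO females, 1233 to 3611 in control males and 42.4 to 2296 in cKO males. The part of choroid plexus in the levels below was not tested. Because the tissue holds many cell types, fewer expressing cells and less RNA per cell cannot be told apart.

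The Pcdha genes were weakly expressed apart from the C-type gene Pcdhac2. In control males, where background was lowest, none of the 12 genes with a numbered Pcdha exon reached a mean of 1 FPKM, and their means ran from 0.103 for Pcdha8 to 0.884 for Pcdha11 (ENSMUSG00000102206). The 3 control males had 0.490, 1.65 and 0.511 FPKM for that Pcdha11, a mean of 0.884 ± 0.664 (SD, n = 3). Pcdha9 had 0.806 ± 0.249, Pcdha12 had 0.764 ± 0.133 and Pcdha8 had 0.103 ± 0.0105. The SDs of the 3 highest overlapped, while Pcdha8 lay below Pcdha9 and Pcdha12 in each control male.

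Pcdhac2, which is known for the spacing of serotonergic axons, was the highest gene of the Pcdha cluster in all 12 libraries. Control males had 2.58, 2.04 and 2.499 FPKM and cKO males 1.87, 5.31 and 4.42, beside 4.38, 3.49 and 3.33 in control females and 4.45, 3.71 and 6.56 in cKO females. In both sexes the cKO range enclosed or overlapped the control range. The serotonergic markers Slc6a4 and Fev stayed at or below 0.0978 after subtraction in every library, and Tph2 at or below 0.693. Pcdhac1, the other C-type gene of the cluster, had 0.360, 0.294 and 0.377 FPKM in control males.

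Most Pcdhb genes were expressed. In control males 18 of 22 had a mean of at least 1 FPKM, and the medians of the group means were 1.57 for Pcdhb, 1.39 for the Pcdhga genes, 1.47 for the Pcdhgb genes and 0.614 for Pcdha without its C-type genes. Pcdhb20 led with 3.44, 3.10 and 3.37 FPKM (3.31 ± 0.178), followed by Pcdhb17 with 2.79, 2.46 and 3.10 (2.78 ± 0.322) and Pcdhb16 with 2.45, 2.16 and 3.03 (2.54 ± 0.444). The lowest was Pcdhb1 at 0.175 ± 0.120. Pcdhb20 exceeded Pcdhb17 and Pcdhb16 in each control male, and the ranges of Pcdhb17 and Pcdhb16 overlapped. Pcdhb20 was the highest Pcdhb gene in 7 of 12 libraries, with Pcdhb16 or Pcdhb17 highest in 2 each and Pcdhb9 in 1.

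**Figure D1:**
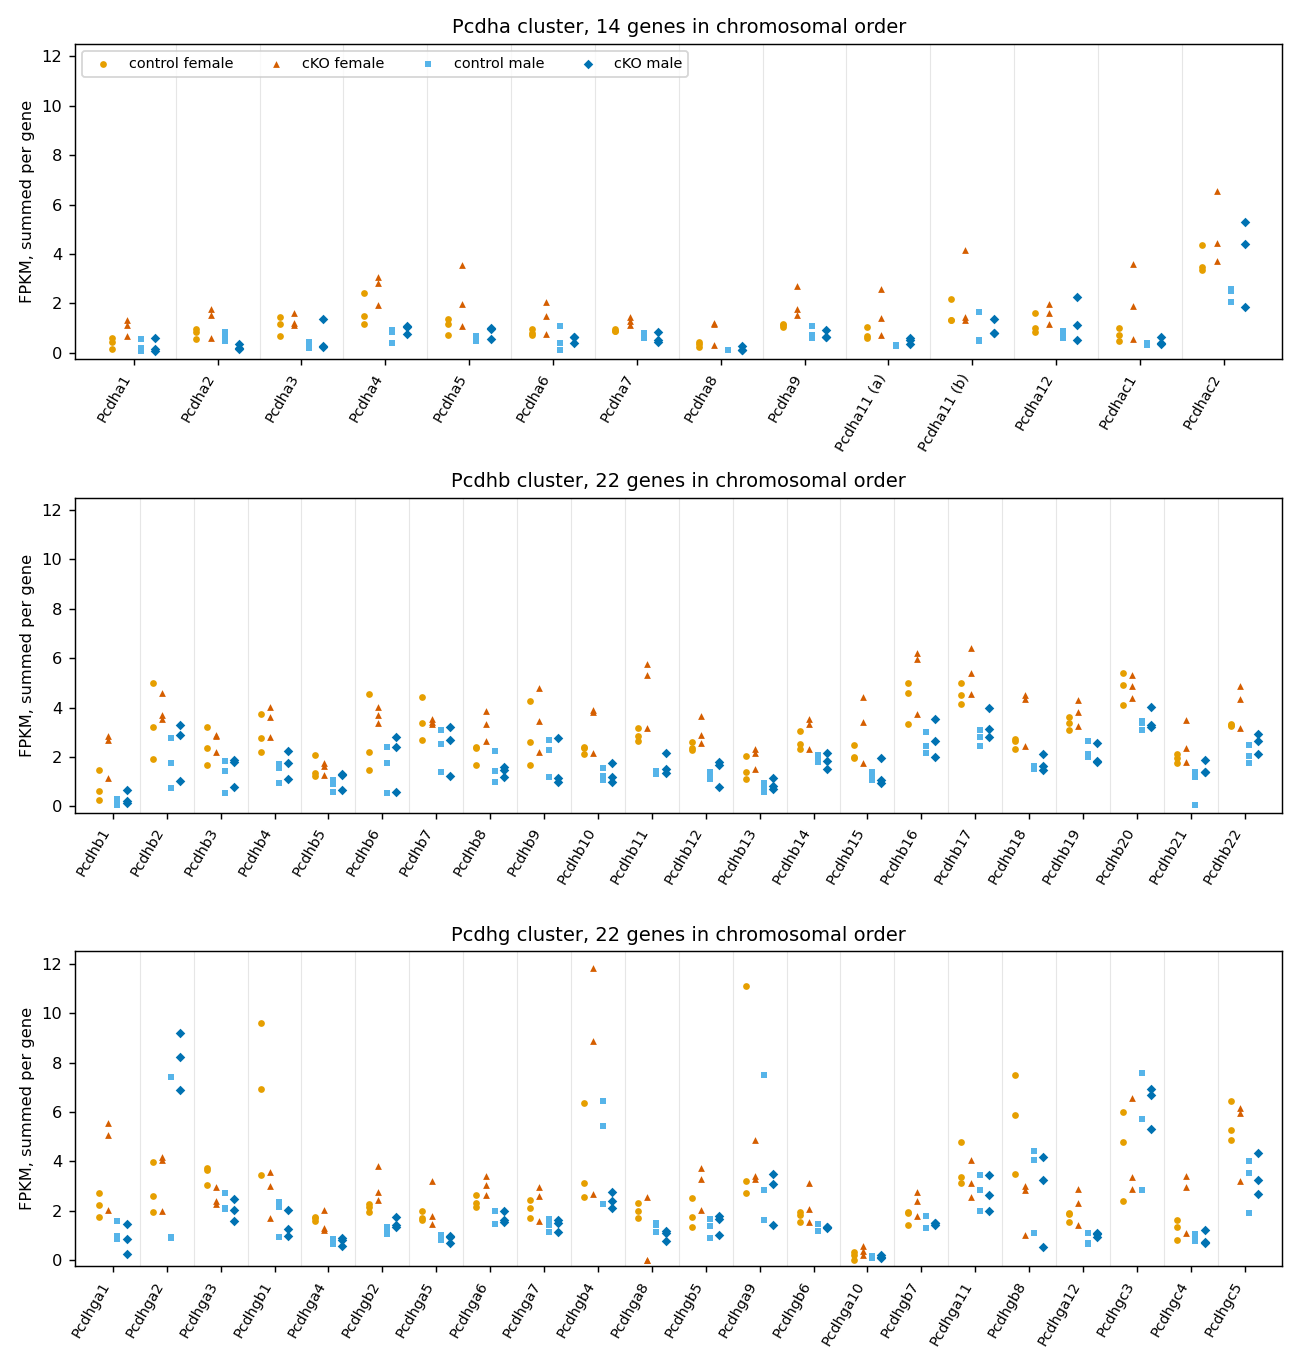
FPKM as deposited, summed per gene (vertical axis), for each of the 58 clustered protocadherin genes in chromosomal order (horizontal axis), in 3 panels for the 3 clusters; each point is 1 library, with 3 libraries per group, and Pcdha11 (a) and (b) are ENSMUSG00000007440 and ENSMUSG00000102206. Pcdhac2 stands above the other Pcdha genes, most Pcdhb genes lie between 1 and 5 FPKM, and in Pcdhg a few genes such as Pcdhga2, Pcdhgb4 and Pcdhga9 reach values between 7 and 12 FPKM in some libraries and stay low in others.

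Among the Pcdhg genes, the C-type gene Pcdhgc3 was highest in control males, with 7.57, 5.72 and 2.85 FPKM (5.38 ± 2.38), and Pcdhgc5 had 4.004, 3.52 and 1.90 (3.14 ± 1.10). Pcdhgc4, whose protein is known for its part in neuronal survival, had 1.04, 0.830 and 0.758 FPKM. Pcdhgc3 exceeded Pcdhgc5, and Pcdhgc5 exceeded Pcdhgc4, in each of the 3 libraries. Pcdhgb4 (4.71 ± 2.18), Pcdhga9 (3.99 ± 3.11), Pcdhgb8 (3.20 ± 1.81), Pcdhga2 (3.10 ± 3.75) and Pcdhga11 (2.76 ± 0.721) were the other high genes of the cluster, and their order did not hold from library to library. Pcdhgb1 had 1.82 ± 0.761. Pcdhga10 was the lowest Pcdhg gene at 0.144 ± 0.0448, and Pcdhgb2 the lowest Pcdhgb gene at 1.23 ± 0.158.

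Summed per subcluster, the control males had 36.4 ± 4.52 FPKM in Pcdhb, 20.4 ± 8.88 in the Pcdhga genes, 15.1 ± 3.75 in the Pcdhgb genes, 12.1 ± 3.59 in the 5 C-type genes and 6.62 ± 0.919 in the other Pcdha genes. After background subtraction the Pcdhb genes held 43.5% ± 4.82 of the total in control males, 44.5% ± 3.31 in cKO males, 48.1% ± 4.84 in control females and 61.1% ± 10.47 in cKO females (SD, n = 3). The shares of the 3 cKO females were 49.05%, 67.9% and 66.4%, and the 2 high values belong to cKO females 2 and 3, the libraries of highest background. As deposited, the Pcdhb share of the cKO females was 44.1%, 47.7% and 44.8%, and that of the control females 40.9%, 41.8% and 45.9%.

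The genes Pcdhga2, Pcdhgb1, Pcdhgb4, Pcdhga9 and Pcdhgb8, 5 in number, share a shorter annotated last exon, which defines the set. They were singled out after their values were seen to vary between libraries, so their spread is a description. In control males 1 to 3, Pcdhga2 had 7.43, 0.910 and 0.959 FPKM, and cKO males had 9.20, 6.91 and 8.24. Pcdhgb4 had 2.26, 5.44 and 6.44 in those control males and 2.13, 2.75 and 2.38 in cKO males. Pcdhga9 had 7.50, 2.84 and 1.62 in control males and 3.10, 3.49 and 1.42 in cKO males. Pcdhgb8 had 1.11, 4.06 and 4.42 in control males and 0.526, 4.19 and 3.26 in cKO males. In control males 2 and 3 Pcdhga2 was low and Pcdhgb8 high, whereas in cKO males 2 and 3 both were high.

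The females showed other leaders. Pcdhga9 had 11.1 FPKM and Pcdhgb1 had 9.59 in control female 1, Pcdhgb8 had 7.51 in control female 2, Pcdhgb1 had 6.95 in control female 3, and Pcdhgb4 had 11.8 in cKO female 1 and 8.88 in cKO female 3. As deposited, the highest male library exceeded the lowest 5.28-fold for the median gene of the 5 and 2.47-fold for Pcdhgb1, the least of them. Genes outside the 5 reached such values too, with 5.98-fold for Pcdhga1 and 35.95-fold for Pcdhb21, whose level in control male 1 was near 0. The sum of the 5 ran from 14.2 to 20.5 FPKM over the 6 males, a 1.44-fold range, and from 12.7 to 29.3 over the 6 females, a 2.31-fold range. After subtraction the ranges were 1.34-fold in males and 13.93-fold in females, where cKO female 2 had 1.46. As deposited, the group means of the sum were 16.8 ± 3.26 in control males, 17.3 ± 1.81 in cKO males, 24.8 ± 3.87 in control females and 20.1 ± 6.46 in cKO females (SD, n = 3).

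**Figure D2:**
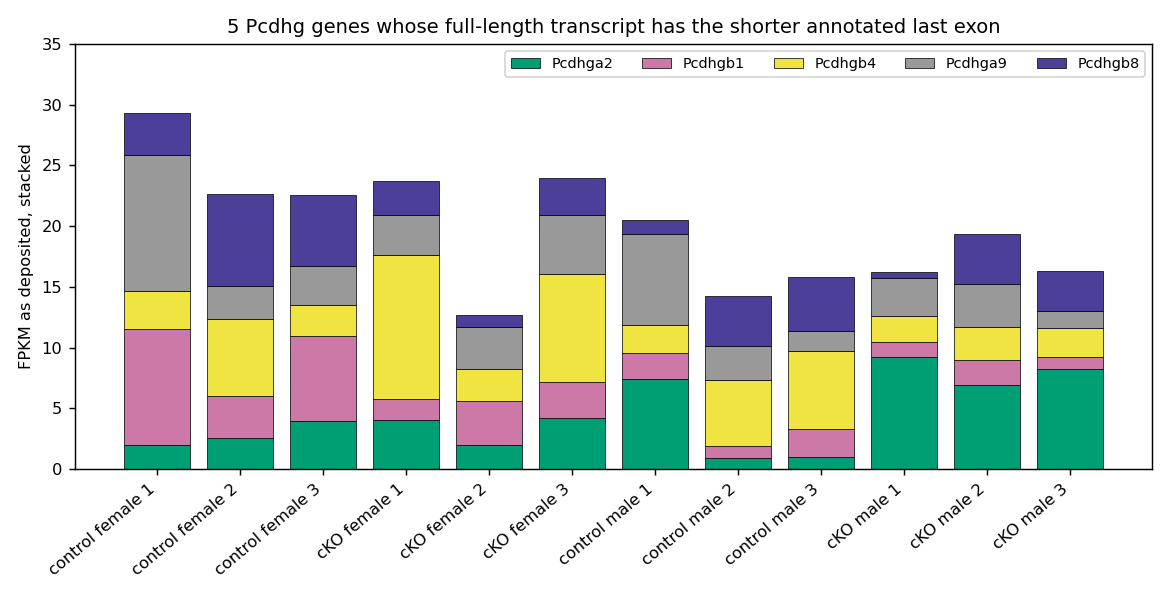
Stacked bars of the FPKM as deposited (vertical axis) of Pcdhga2, Pcdhgb1, Pcdhgb4, Pcdhga9 and Pcdhgb8 in each of the 12 libraries (horizontal axis). The leading gene changes from library to library, and the totals run from 14.2 to 20.5 FPKM over the male bars and from 12.7 to 29.3 over the female bars.

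The set of 5 genes was defined by the annotation, so that they share this trait is not a result. The Pcdhg cluster has 23 transcripts counted as full-length that end in the same last exon, among them a short one of Pcdhgc4 (2272 bases). In the 5 genes that exon is annotated 3 bases shorter than in the other 18 transcripts. In 11 of 12 libraries the highest full-length Pcdhg transcript outside the C-type genes was one of the 5 with the shorter end. Since the 5 were singled out after these values were seen, this count is a description. It does not link the shorter end to level. The last 3 exons are common to the cluster and the tables give values per transcript, not per exon, so sequence from the common exons has to be divided among transcripts. The part that this division plays in the values was not tested. Pcdhga8 is another case: it had 0.0213 and 0 FPKM in cKO females 1 and 3 and 0.760 to 2.55 in the other 10 libraries, and those are the 2 libraries with the highest Pcdhgb4.

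Pcdhgc3 also divided between transcripts. Its full-length transcript had 7.37, 5.68 and 1.12 FPKM in control males and 6.64, 0.0422 and 4.61 in cKO males, while its single-exon transcript had 0.202, 0.0431 and 1.74 in control males and 0.0454, 6.89 and 0.701 in cKO males. In cKO male 2 nearly all of the gene was thus listed under the single-exon transcript, although the level of the gene, 6.93 FPKM, was close to that of cKO male 1 at 6.69.

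The comparison of cKO with control mice asks how these genes respond to loss of Atrx, within each sex. Of the 58 genes, 32 had enough signal after subtraction to be tested (19 Pcdhb, 5 Pcdhga, 5 Pcdhgb and 3 C-type genes; no other Pcdha gene), and no tested gene met the filter through libraries of a single group. With limma, fitted on all 15055 genes that passed the filter and Benjamini-Hochberg adjusted over them, 0 of 32 members changed in females or in males at an adjusted p under 0.05. Over all genes this threshold was passed by 0.0266% higher and 0.0465% lower in females, and by 0.0% higher and 0.00664% lower in males. The median log2 change of the members was 0.00 in females and 0.02 in males, beside 0.02 and 0.03 for all genes. The median standard error of a member was 0.31, so changes of the size seen in most members were not detectable. With no filter on low values, all 58 genes entered the fit and 0 were called in either sex.

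In females, 4 members had an unadjusted p under 0.05, 3 lower (background 11.2% of genes) and 1 higher (18.1%). Pcdhgb1 had 6.72, 2.34 and 4.88 in control females after subtraction and 0.951, 1.28 and 0.186 in cKO females (log2 change -1.99, SE 0.43, adjusted p = 0.114). Pcdhgb8 had 2.20, 6.31 and 4.59 against 1.33, 0 and 0 (log2 -2.56, SE 0.67, adjusted p = 0.114), and Pcdhga3 had 3.10, 2.54 and 2.96 against 2.41, 0.634 and 0.0313 (log2 -1.48, SE 0.47, adjusted p = 0.114). In these 3 genes each cKO value was under each control value. The same was true as deposited for Pcdhgb8 (3.49, 7.51 and 5.88 FPKM against 2.85, 1.001 and 3.02) and Pcdhga3 (3.72, 3.03 and 3.65 against 2.95, 2.39 and 2.27), but not for Pcdhgb1 (9.59, 3.44 and 6.95 against 1.73, 3.58 and 3.02).

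For Pcdhgb8 and Pcdhga3 the values nearest 0 were those of cKO females 2 and 3, whose background was 1.97 and 2.25 FPKM. Without both libraries, which leaves cKO female 1 alone with a spread taken from the other groups, the log2 changes were -1.73 for Pcdhgb1, -1.31 for Pcdhgb8 and -0.21 for Pcdhga3 (adjusted p = 0.884, 1 and 1). Without cKO female 1, 8 of 32 members were called, but so were 39.2% of all genes.

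Pcdhb11 was the member with the smallest p among those higher in cKO females. It had 2.35, 2.21 and 2.49 in control females and 2.60, 5.69 and 4.78 in cKO females after subtraction (log2 change 0.71, SE 0.23, adjusted p = 0.114). The high values were again those of cKO females 2 and 3, and without them the log2 change was 0.12. The change was -0.05 when values were scaled without subtraction. Pcdhb18 (log2 0.42, adjusted p = 0.183) and Pcdhb17 (0.35, 0.205) had the next smallest p-values. With scaling but no subtraction both also turned below 0, to -0.18 and -0.42. As deposited, without scaling, the means of all of these genes were higher in cKO females. They were 4.75 against 2.89 FPKM for Pcdhb11, 3.77 against 2.57 for Pcdhb18 and 5.46 against 4.55 for Pcdhb17.

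The same 4 genes were those tested whose female groups did not overlap after subtraction, 1 higher (background 10.2%) and 3 lower (7.5%). As deposited, and among the tested members only, Pcdhb8 was higher without overlap in cKO females (background 10.9%) and 2 were lower (7.84%). In males 0 tested members separated after subtraction (background 7.4% higher and 4.65% lower), and as deposited Pcdhb21 was higher (7.07%) and 0 were lower (2.86%). In no member did the groups separate in the same direction in both sexes, either as deposited (background 1.38% higher and 0.81% lower) or after subtraction (1.55% and 0.943%).

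In males 0 members had an unadjusted p under 0.05 (background 1.32% of genes higher and 1.0% lower). The smallest was that of Pcdhga2, which had 6.47, 0.859 and 0.868 after subtraction in control males and 8.18, 6.21 and 7.79 in cKO males (log2 change 1.74, SE 0.79, adjusted p = 1). Control male 1 lay within the cKO range. Pcdhb21 followed, with 0.0219, 1.12 and 1.26 in control males and 1.23, 1.51 and 1.30 in cKO males (log2 0.69, SE 0.45, adjusted p = 1). Control male 1 was close to 0 there, and without it the log2 change was 0.13.

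Pcdhac2 (log2 0.50, SE 0.35), Pcdhb22 (0.23, SE 0.16), Pcdhb17 (0.19, SE 0.18) and Pcdhgb4 (-0.78, SE 0.85) completed the 6 smallest p-values in males, each with an adjusted p of 1. In the male comparison 0 members were called under any of the 22 alternative settings.

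**Figure D3:**
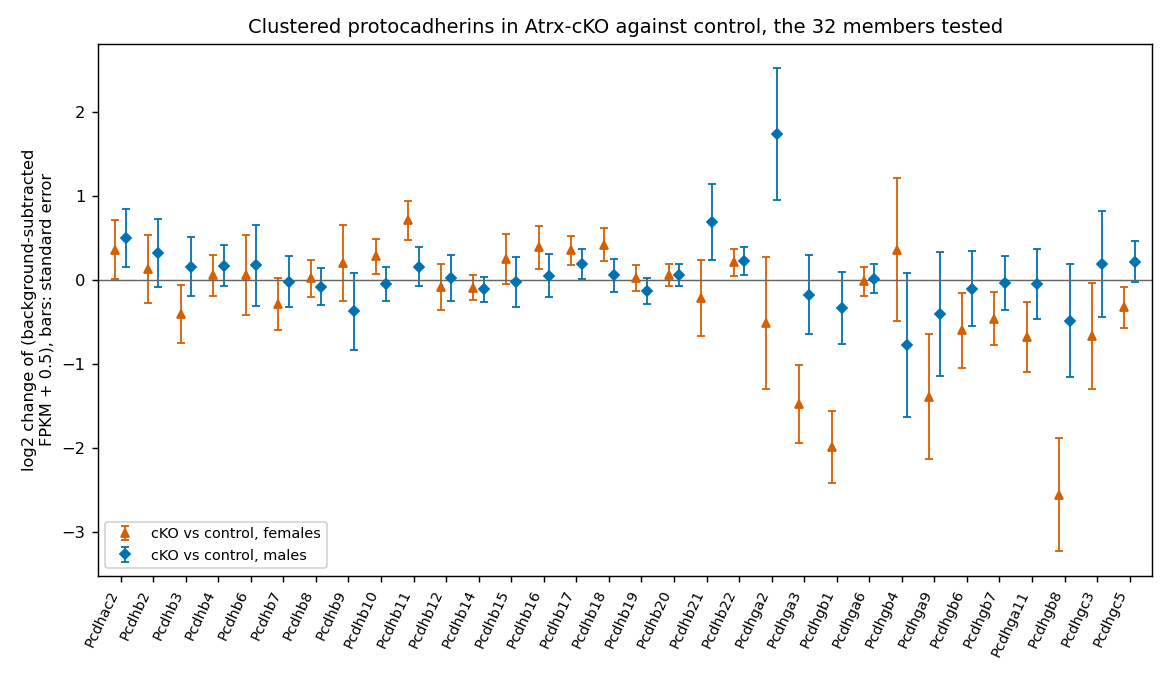
Log2 change of background-subtracted FPKM + 0.5 in cKO against control (vertical axis, bars are standard errors from limma, 3 libraries per group) for the 32 clustered protocadherins tested, in chromosomal order (horizontal axis), for females and males. Most Pcdhb genes lie near 0 in both sexes, Pcdhgb8, Pcdhgb1 and Pcdhga3 are lowest in females and Pcdhga2 is highest in males, with wide errors and no adjusted p under 0.05.

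For the mean of both sexes, 0 of 32 members were called (background 0.0133% higher and 0.0199% lower), and the median log2 change was -0.03 against 0.01 for all genes. At an unadjusted p under 0.05, 1 was higher (background 14.2%) and 3 lower (6.11%). The smallest p-values were those of Pcdhgb1 (log2 -1.16, SE 0.30, adjusted p = 0.222), Pcdhgb8 (-1.52, SE 0.48, 0.222), Pcdhb11 (0.44, SE 0.16, 0.223), Pcdhga3 (-0.83, SE 0.33, 0.226), Pcdhb17 (0.27, SE 0.12, 0.249) and Pcdhb22 (0.22, SE 0.12, 0.295). The male minus female difference of the cKO effect was called in 0 members (background 0.0% in either direction), with Pcdhgb1 alone under an unadjusted 0.05 (background 3.02% positive and 3.23% negative). It was 1.65 for Pcdhgb1 (SE 0.61), 2.07 for Pcdhgb8 (SE 0.95), 2.25 for Pcdhga2 (SE 1.11), 1.31 for Pcdhga3 (SE 0.66), -0.55 for Pcdhb11 (SE 0.33) and 0.54 for Pcdhgc5 (SE 0.35), all with an adjusted p of 0.586. The effects of the sexes were therefore not shown to differ in any member.

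The controls of the 2 sexes were also set against each other. After subtraction the Pcdhb genes were lower in control males: summed, they had 49.3, 43.4 and 54.6 in control females and 32.1, 28.7 and 36.01 in control males, and the groups did not overlap. The cKO females, at 46.7, 66.4 and 51.2, did not overlap the cKO males either, at 28.1, 40.6 and 35.7. Both separations were also present as deposited, with neither subtraction nor scaling. Control females then had 60.3, 52.9 and 70.1 and control males 37.5, 31.4 and 40.2. The cKO females had 59.5, 88.7 and 82.9 and the cKO males 32.7, 49.8 and 38.8. Both were lost with scaling but no subtraction, where the scaling factors came from 30588 genes. Control females then had 54.99, 54.64 and 54.72 and control males 46.08, 46.76 and 63.39, while cKO females had 50.08, 39.95 and 35.01 and cKO males 41.1, 45.68 and 58.16, a higher mean in cKO males (48.3 against 41.7). With subtraction from summed FPKM the control groups did not overlap and the cKO groups did, with means of 34.8 in females and 35.4 in males. Over the single members, 18 of 32 were lower in every control male than in every control female after subtraction, beside 27.5% of all genes, and 0 were higher, beside 21.0%. As deposited, 19 of 32 were lower without overlap, beside 36.0% of all genes, and 0 were higher, beside 14.5%. The 18 after subtraction comprised 14 of the 19 Pcdhb genes tested, Pcdhac2, Pcdhgc5, Pcdhgb1 and Pcdhga3. No member passed the adjusted threshold (background 6.56% higher and 5.18% lower), and 9 had an unadjusted p under 0.05, all lower in males (background 13.2%, and 13.3% higher).

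Pcdhgb1 had 6.72, 2.34 and 4.88 in control females after subtraction and 1.52, 0.732 and 1.75 in control males (log2 -1.43, SE 0.43, adjusted p = 0.0554). Pcdhb11 had 2.35, 2.21 and 2.49 against 1.18, 1.24 and 1.31 (log2 -0.71, SE 0.23, adjusted p = 0.0736), and Pcdhb17 had 4.23, 3.52 and 3.78 against 2.42, 2.34 and 2.82 (log2 -0.52, SE 0.18, adjusted p = 0.0851). Pcdhgc5 (log2 -0.72, SE 0.24, adjusted p = 0.087), Pcdhb4 (-0.71, SE 0.24, 0.087) and Pcdhb20 (-0.38, SE 0.13, 0.0955) followed. Each of these 6 genes was lower in all 3 control males than in all 3 control females. In Pcdhb10, Pcdhb11, Pcdhb17, Pcdhb18, Pcdhb19 and Pcdhb22, every one of the 6 males lay below every one of the 6 females after subtraction. The share of all genes with such a separation was not computed, so this is a description and not a result about these members.

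**Figure D4:**
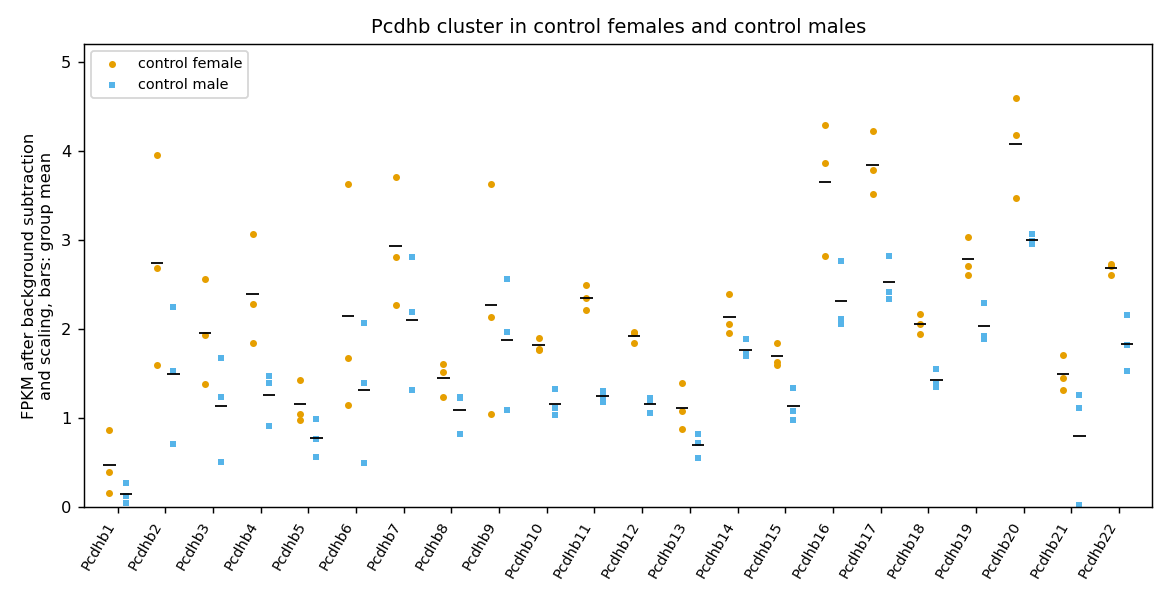
FPKM after background subtraction and scaling (vertical axis) of the 22 Pcdhb genes in chromosomal order (horizontal axis) in the 3 control females and 3 control males; points are libraries and bars are group means. The mean of control females lies above that of control males for each gene, and the points of the groups do not overlap for 15 of 22. Of the 19 Pcdhb genes tested this holds for 14, beside 27.5% of all tested genes that were lower in control males without overlap.

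The size of this difference relative to other genes depended on the processing. After subtraction the median log2 difference of the tested members was -0.42, against -0.07 for all genes and -0.13 for all tested genes of a mean of 1 to 5. Without subtraction 56 members and a larger set of genes passed the filter, so the genes differed as well as the values. The median was then -0.56 for the members and -0.58 for all genes as deposited, and -0.06 and -0.30 with scaling, where the members lay above the median gene. In that setting Pcdhb20 was 0.11 higher in control males. The background was 0.0863 to 0.602 FPKM in control females and 0.00664 to 0.0276 in control males. Neuronal markers were also higher in control females, 5 of 10 being called lower in males and 0 higher (all genes 5.18% and 6.56%). Markers called higher in males were 2 of 6 for oligodendrocytes, 2 of 6 for astrocytes and 1 of 6 for microglia, with 0 lower, and 0 were called for oligodendrocyte precursors, endothelial and mural cells and choroid plexus. The part of either in the difference was not tested, and sex cannot be told apart from any other difference between these libraries. The count of called members was 11 when the control groups alone were fitted, with 23.8% of all genes called, and 8 without cKO females 2 and 3, with 22.4%.

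Within Pcdhb, in males, Pcdhb9 and a group of genes that included Pcdhb2 and Pcdhb6 were high in different libraries. Pcdhb6 had 1.76, 0.532 and 2.42 FPKM in control males, against 0.592, 2.82 and 2.41 in the cKO males. Pcdhb9 had 2.28, 2.70 and 1.20 in control males and 2.77, 1.14 and 1.01 in cKO males. Pcdhb2 was high where Pcdhb6 was, with 1.77, 0.757 and 2.78 in control and 1.03, 2.88 and 3.30 in cKO males. Control male 2 and cKO male 1 thus had the highest Pcdhb9 and the lowest Pcdhb6 of the males, and control male 3 and cKO males 2 and 3 the reverse. Among control females, control female 2 likewise had the highest Pcdhb9 (4.28 FPKM) and the lowest Pcdhb6 (1.46) and Pcdhb2 (1.94). Control female 3 was the reverse, with 1.68 of Pcdhb9, 4.55 of Pcdhb6 and 5.01 of Pcdhb2. The pattern was not particular to Pcdhb2 and Pcdhb6. Pcdhb1, Pcdhb3, Pcdhb4, Pcdhb5 and Pcdhb7 also had their lowest male values in control male 2 and cKO male 1. Pcdhb3, for example, had 1.445, 0.537 and 1.84 FPKM in control and 0.806, 1.90 and 1.795 in cKO males. Among control females these genes were likewise lowest in control female 2 and highest in control female 3. The cKO females did not divide in this way. In cKO female 2, whose background was 1.97, Pcdhb9 had 4.81 FPKM, the highest of the 12 libraries. That library also had 4.59 of Pcdhb2 and 4.03 of Pcdhb6.

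The ratio of Pcdhb9 to Pcdhb6 in males was 1.295, 5.07 and 0.494 in control libraries and 4.68, 0.404 and 0.418 in cKO libraries. In females it was 1.19, 2.94 and 0.370 in control and 0.650, 1.195 and 0.9395 in cKO libraries. These ratios are of FPKM as deposited. On them, Pcdhb9 was above Pcdhb6 in 2 of 3 control and 1 of 3 cKO libraries of each sex. The ranges of the ratio overlapped between genotypes in both sexes. After subtraction the ratio of cKO female 3 was 1.025, so Pcdhb9 was then above Pcdhb6 in 2 of 3 cKO females. The log2 changes of Pcdhb9, Pcdhb6 and Pcdhb2 with cKO in males were -0.37 (SE 0.45), 0.18 (SE 0.48) and 0.32 (SE 0.41), all with an adjusted p of 1.

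**Figure D5:**
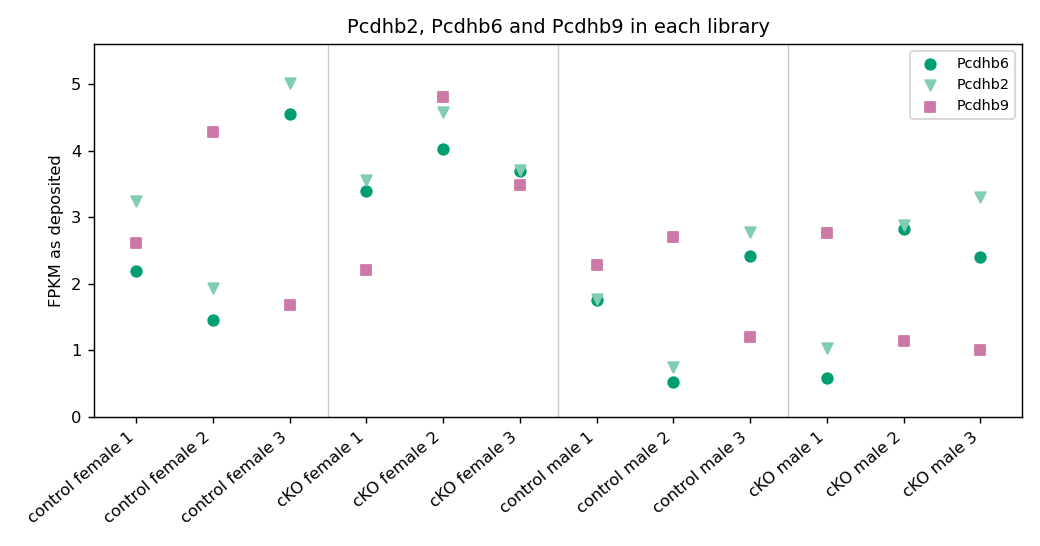
FPKM as deposited (vertical axis) of Pcdhb2, Pcdhb6 and Pcdhb9 in each of the 12 libraries (horizontal axis), with lines between the 4 groups. In males Pcdhb9 lies above Pcdhb6 in control males 1 and 2 and cKO male 1 and below it in the other 3 libraries, with both states present in each genotype.

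Genes related to the clustered protocadherins by function were not called for the knockout either. Of 9 tested non-clustered protocadherins, 24 chromatin and looping proteins that act on protocadherin promoters, 23 partners and downstream proteins, and 18 classical and related cadherins, 0 were called in either sex, in the mean of the sexes or in their difference. Their medians in females were -0.16, 0.04, -0.08 and -0.03 on the log2 scale, against 0.02 for all genes. In the mean comparison the smallest p-values among chromatin proteins were those of the cohesin release factor Wapl (log2 -0.32, adjusted p = 0.222), the cohesin regulator Pds5b (-0.19, 0.222), the lamin B receptor Lbr (0.30, 0.222) and the histone methyltransferase Ehmt1 (0.15, 0.225).

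Among the partners, Nlgn2, an adhesion protein of inhibitory synapses, had a log2 value of -0.31 (adjusted p = 0.222), the actin regulator Wasf1 -0.32 (0.226), the kinase Ptk2, which Pcdha and Pcdhg proteins inhibit, 0.12 (0.263) and its downstream protein Marcks -0.18 (0.223). Pcdh19 (0.91, 0.255), Pcdh7 (-0.76), Pcdh1 (-0.25) and Pcdh9 (0.60) were first among the non-clustered protocadherins, and Cdh22 (-0.88), Cdh12 (0.29), Celsr2 (-0.27) and Cdh10 (0.15) among the cadherins, none called.

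Between control males and control females, related genes did pass. Pcdh1 was 0.83 lower in males on the log2 scale (SE 0.20, adjusted p = 0.0264), 1 of 9 non-clustered protocadherins. Of the cadherins 5 of 18 were lower in males and 0 higher: the calsyntenins Clstn1 (-0.68), Clstn2 (-0.80) and Clstn3 (-0.61), Fat4 (-0.63) and Celsr2 (-0.95). Of the chromatin proteins 2 of 24 were higher, the cohesin subunits Stag1 (0.46) and Stag2 (0.39), and 2 lower, the cohesin subunit Smc1a (-0.33) and the corepressor Trim28 (-0.47). Of the partners 3 of 23 were higher and 4 lower, Ptk2b, a kinase related to Ptk2, among the latter (-0.69, adjusted p = 0.0131). The background of 6.56% higher and 5.18% lower applies to all of them.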

How the data were processed

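RNA was extracted by miRVANA and sequenced after ribosomal RNA removal (ScriptSeq Complete Gold), per the labels. Per the submitters' processing notes, HISAT2 2.0.4, StringTie and the build GRCm38.p6 were used; for trimming, strand and annotation release the sources used here say nothing, so values of overlapping genes are uncertain. The authors deposited, for 137862 transcripts per library, FPKM (fragments per unit of length and library size) and coverage (mean reads per base), with no counts. FPKM was summed per gene. Mapped bases came from the ratio of FPKM to the deposited coverage.

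For the tests, bases per gene were divided by the union of its exons (GENCODE M21), that library's median over 1459 olfactory and vomeronasal receptor genes was subtracted, values below 0 were set to 0, and libraries were scaled by median-of-ratios factors over 5349 protein-coding genes (mean 5 or more). The filter asked for a mean of 1 or more, and 1 or more in 3 libraries. limma 3.58.1 (R 4.3.3; trend and robust) fitted 4 group means to log2(value + 0.5), which understates folds of low genes. P-values are two-sided, Benjamini-Hochberg adjusted over all tested genes, with a threshold of 0.05. The code was tested on simulated data. Setting values to 0 removes spread between libraries, so p-values of genes near background are uncertain.

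Members and gene lists were chosen with earlier results of these data known. Named were Atrx, the C-type genes, and the 3 highest and the lowest gene of each other subcluster in control males. Also named were the 6 smallest p-values per comparison, members separated in both sexes, and up to 4 genes per list by p. Called list genes and the 5 Pcdhg genes with the shorter last exon were named after their values were seen. So were Pcdhga1, Pcdhga8, Pcdhb2, Pcdhb3, Pcdhb5, Pcdhb6, Pcdhb7, Pcdhb8, Pcdhb9, Pcdhb10 and Pcdhb19. Alternatives were other scalings, pseudocounts, filters, gene values, left-out libraries, a replicate block and fits of single groups. Protocadherin sequences are not used here.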

Additional observations from a re-analysis of the deposited data

How the results depend on the processing

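No member was called in males under any alternative. Counts of called members (0 in every comparison as reported) changed as follows. On deposited FPKM without scaling 1 was called in females (Pcdhgb1, adjusted p = 0.0493), with 24.1% of all genes. For control males against control females, a pseudocount of 1 gave 1 (11.8% of all genes called), the control groups alone gave 11 (23.8%), and leaving out cKO females 2 and 3 together gave 8 (22.4%). Over the 12 fits that left out a library, counts ran from 0 to 8 in females, 0 to 6 for the mean of both sexes, 0 to 3 for the difference between sexes and 0 to 6 for the control comparison; each highest count came without cKO female 1, where 39.2%, 30.4%, 20.4% and 18.4% of all genes were called. The other libraries whose removal gave calls were cKO female 2 (3 members, 14.1% of all genes), cKO female 3 (1, 12.8%) and control female 2 (1, 6.6%), all in the control comparison. With the replicate number as a block, 11 were called in the control comparison (20.4% of all genes) and 0 in the others. Libraries of the same number did not consistently deviate together (correlations of 0.153, -0.303 and 0.379 in females and 0.0403, -0.0969 and 0.197 in males). With 3 libraries per group, these values neither show nor exclude that the numbers pair them.

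Single members were followed through the alternatives only for the 6 of smallest p in each comparison, and their direction turned in 16 cases. With scaling but no subtraction, Pcdhb11 was -0.050 in females, -0.020 in the mean and 0.061 in the difference between sexes. In that setting Pcdhb18 was -0.18 and Pcdhb17 -0.42 in females. Pcdhb17 was -0.0038 in males and -0.21 in the mean, Pcdhb22 -0.16 in the mean, and Pcdhb20 0.11 in the control comparison. Quantile normalization gave Pcdhb18 -0.16 in females and Pcdhb22 -0.10 in the mean. Subtraction from summed FPKM gave Pcdhb18 -0.068 and Pcdhb17 -0.016 in females and Pcdhb22 -0.017 in the mean. Without cKO females 2 and 3, Pcdhb18 was -0.052 in females and Pcdhb11 0.036 in the difference. The cause was not tested. In control males the subcluster shares moved by less than their spread, whereas in cKO females the Pcdhb share was 61.1% after subtraction and 45.5% as deposited, and that of Pcdha without C-type genes 4.63% and 11.5%. Groups of 3 libraries limit precision, and depth is known only as mapped bases.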

Other observations

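Genes outside the clusters were ranked by how their background-subtracted level followed the difference between Pcdhb9 and Pcdhb6 over the 12 libraries, a step chosen after the values were seen and given as description. Of the 20 genes ranked highest among 15023, 5 lie on chromosome 18 (Greb1l, Ankrd29, Matr3, Rab27b and Dcp2), where 2.37% of the ranked genes lie. The libraries share tissue and processing, and the ranking says nothing of shared control.

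Cat, the catalase gene on chromosome 2, ranked highest. It had 11.3, 10.7 and 9.76 FPKM in control males and 11.55, 9.46 and 9.71 in cKO males. The 3 males with Pcdhb9 above Pcdhb6 had 10.7 to 11.55 and the other 3 had 9.46 to 9.76. Greb1l (chromosome 18, 10325177 to 10562934), named for its likeness to an oestrogen-responsive gene, had 3.03, 1.38 and 3.54 FPKM in control males and 2.03, 4.52 and 3.25 in cKO males. Ankrd29 (chromosome 18, 12252362 to 12305720), an ankyrin repeat gene, had 3.57, 4.19 and 2.10 in control males and 4.13, 1.94 and 1.60 in cKO males. These 3 genes were picked for following that difference over the same libraries, so their division in either sex is set by the choice. In females, as deposited, the ranges of the libraries with Pcdhb9 above and below Pcdhb6 overlapped for each of the 3. After subtraction, as used for the ranking, cKO female 3 had Pcdhb9 above Pcdhb6. The female ranges then did not overlap for Cat (9.14 to 9.88 against 8.35 and 8.65) or Ankrd29 (1.95 to 2.86 against 1.415 and 1.78). For Greb1l they still overlapped.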
